A study of Caenorhabditis elegans with 2 samples.

Results

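The genes described here are 10 protein-coding genes of Caenorhabditis elegans whose products move, anchor or remodel the mitotic or meiotic spindle, of 19973 protein-coding genes in all. They were taken by name: the motor genes bmk-1, klp-7, klp-18, klp-19 and dhc-1, the microtubule stability genes zyg-8 and cls-2, and the cortical positioning genes lin-5, gpr-1 and gpr-2. For each gene, peaks of chromatin immunoprecipitation with sequencing (ChIP-seq) for LIN-35 were collected whose summit, the base of highest signal, was inside the gene or at most 1000 bp from the 5′ end of its record. Whole L1 larvae of both sexes from strain YL409 were profiled in 1 group of 2 biological replicates, with DNA fragments of 150 to 350 bp. YL409 carries the unc-119 allele ed3 on chromosome III and the transgene vrIs60, in which the promoter of lin-35 drives LIN-35 fused to GFP and FLAG, beside a working unc-119 copy. The labels do not state whether the chromosomal lin-35 gene is intact, and all material carried the tag. No untagged, mutant or other-stage sample was analysed here, so no test between groups was possible and the results are counts, positions, signals and ranks. The larvae were whole, so binding in a few cells and weaker binding in many cannot be told apart, and peak lists hold no expression values by which the tissue could be checked.

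LIN-35 is the worm counterpart of the retinoblastoma protein. Together with the E2F and DP proteins EFL-1 and DPL-1 and the MuvB core it forms the DREAM complex, which holds cell cycle genes silent. DREAM can reach DNA through E2F sites, bound by E2F and DP, and through the cell cycle homology region (CHR), bound by the MuvB subunit LIN-54. The spindle genes act downstream of entry into division. Kinesins and dynein walk along microtubules or take them apart, CLASP and doublecortin proteins stabilise them, and LIN-5 with GPR-1 and GPR-2 links dynein to the cell cortex so that the spindle can be pulled into place.

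LIN-35 peaks of the thresholded list were found at 8 of the 10 genes. That list holds 3838 peaks kept by the authors at a cutoff on the irreproducible discovery rate (IDR), a measure of agreement between replicates. They are exactly the strongest by signal of 30000 peaks in the list pooled over both replicates. A listed peak therefore need not be strong in each replicate, and 75.7% of them overlapped 1 of the 3838 strongest peaks of both. By its label the pooled list holds peaks and background as input for the IDR step. Its entries below the IDR list, called weaker pooled peaks here, may therefore be background. Of all protein-coding genes 19.0% met the same rule, and 22.0% of the 10617 genes within the length range of the 10 (1835 to 15123 bp) did. The 10 genes were chosen with earlier results of these data known, so this difference may be in part how they were chosen. Each of the 8 genes had exactly 1 IDR peak, with authors' signal values from 112 to 897 where the IDR list begins at 56.0 and has a median of 125. The genes without one were dhc-1 and zyg-8, the longest of the 10 (15.1 and 10.4 kb). The narrower rule, a summit within 500 bp of the 5′ end, held for 5 of the 10 (bmk-1, klp-19, lin-5, gpr-1 and gpr-2) against 13.6% of all genes. For klp-18, cls-2 and klp-7 the summit lay further away, 551 and 955 bp upstream and 2256 bp downstream of the 5′ end.

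**Figure D1:**
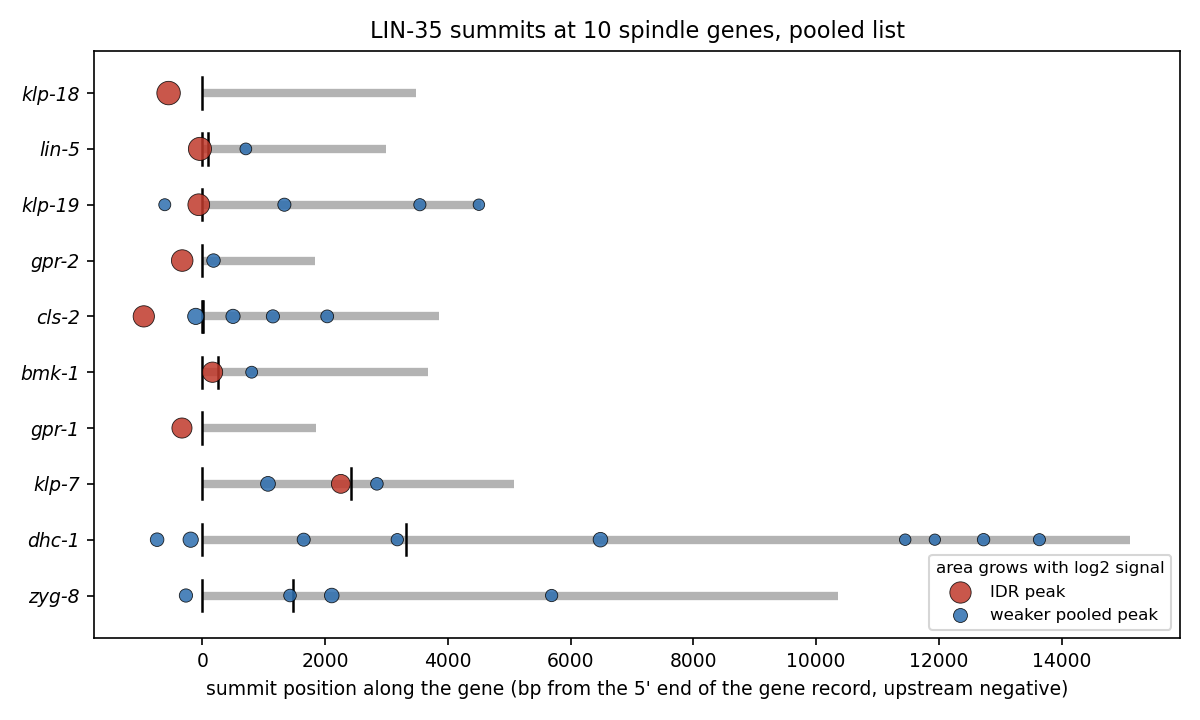
Positions of all 34 summits of the pooled LIN-35 list, which by its label includes background, at the 10 genes. They are in bp from the 5′ end of each gene record (x axis, upstream negative), with genes ordered by the signal of the strongest peak. Grey bars are gene records, vertical ticks are transcript starts, and point area grows with log2 signal. Each of 8 genes has 1 large IDR point near or ahead of a transcript start, and dhc-1 and zyg-8 have small points only.

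The strongest peak was assigned by the rule to a kinesin gene, though the start of another gene was nearer. At klp-18, which encodes the kinesin that sorts microtubules into a bipolar spindle in oocyte meiosis (WBGene00002228, chromosome IV, 7040211 to 7043694, plus strand, ce11), the peak at 7039524 to 7039792 had a signal of 897 in the pooled list, 251 in replicate 1 and 652 in replicate 2. It ranked 179 by signal in the pooled list, 197 in replicate 1 and 169 in replicate 2, and both replicates placed it ahead of the other 9 genes. Signal scales differ between lists, so the ranks carry the comparison between replicates. The summit lay between genes, 551 bp upstream of klp-18 but only 80 bp upstream of cogc-2, a subunit of the Golgi tethering complex COG that is transcribed the other way. Of the genes with an IDR peak under the same rule, 250 of 3797 (6.58%) had a stronger one.

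The chromokinesin gene klp-19, whose product works on chromosome arms and the central spindle, had its peak at the start itself. The gene (WBGene00002229, chromosome III, 13302717 to 13307259, minus strand) had a summit 59 bp upstream of its 5′ end in a peak at 13307187 to 13307422. The signal was 386 pooled, 113 in replicate 1 and 269.6 in replicate 2, and the ranks were 554, 544 and 565. The divergent gene slc-36.1, a putative amino acid transporter, starts 184 bp from the same summit. Weaker pooled peaks with signals of 10.2 to 15.8 lay inside klp-19 and 613 bp upstream, each found in only 1 replicate.

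At bmk-1, a BimC-type kinesin gene (WBGene00000257, chromosome V, 14453302 to 14456984, minus strand), LIN-35 sat between the starts of the gene's 2 transcripts. The summit was 165 bp inside the gene record, in an intron, and 95 bp upstream of the shorter transcript F23B12.8a. The peak at 14456728 to 14456913 had a signal of 204 pooled, 60.3 in replicate 1 and 138 in replicate 2, with ranks of 1153, 1005 and 1241. The summit position differed by at most 3 bp between the lists. The meiotic cohesin gene coh-3 starts 603 bp away on the opposite strand.

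At klp-7, the gene of the MCAK-type kinesin that depolymerises microtubule ends (WBGene00002219, chromosome III, 10805925 to 10811001, plus strand), the IDR peak was internal. Its summit, in an intron, lay 2256 bp into the gene record and 160 bp upstream of the start of the shorter transcript K11D9.1b. The peak at 10808019 to 10808342 had a signal of 112 pooled, 39.7 in replicate 1 and 71.2 in replicate 2. Its ranks of 2141, 1521 and 2421 made it the weakest of the 8 in every list. No IDR summit lay within 1000 bp of the upstream start of klp-7, and the strongest pooled summit in that direction, at 1069 bp into the gene, had a signal of 25.7. Where the 5′ end of any transcript was accepted, klp-7 joined the genes with a summit within 500 bp, for 6 of 10. The share of all genes under this looser rule is not given here.

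**Figure D2:**
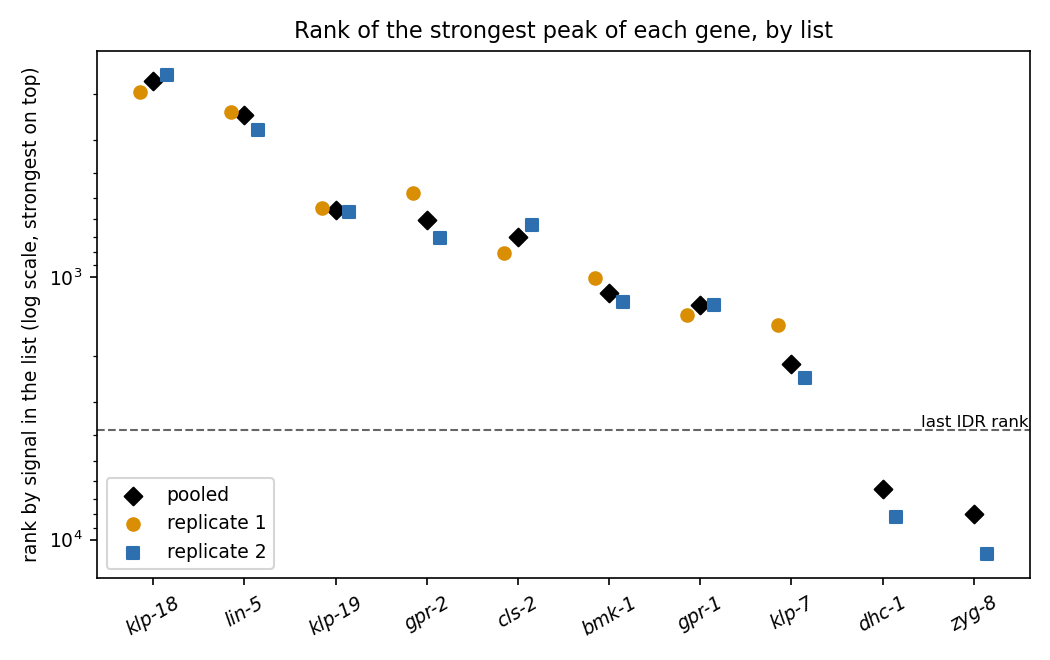
Rank by signal (y axis, log scale, strongest on top) of the strongest pooled peak of each gene (diamonds). Circles and squares are the peaks of replicate 1 and replicate 2 that overlap it. The dashed line is the last IDR rank, 3838. For 8 genes all 3 points lie above it, and klp-18 and lin-5 lead in every list. The genes dhc-1 and zyg-8 have no replicate 1 point, since no replicate 1 peak overlapped their strongest pooled peak. The best replicate 1 ranks elsewhere under the rule, not drawn, were 3788 at dhc-1 and 6527 at zyg-8.

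Among the cortical genes, lin-5 had the strongest peak. LIN-5 is the NuMA-like coiled-coil protein that recruits dynein to the cortex, and its gene (WBGene00002994, chromosome II, 7860574 to 7863563, plus strand) had a summit 40 bp upstream of the 5′ end in a peak at 7860333 to 7860667. The signal was 737.5 pooled, 227 in replicate 1 and 479 in replicate 2, and the ranks were 241, 235 and 275. The summits of the 3 lists fell within 2 bp of the pooled one. It was the only one of the 8 genes with IDR peaks, apart from klp-7, whose summit had no other protein-coding start within 1000 bp.

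GPR-1 and GPR-2 are near-identical proteins that bind LIN-5 and the Gα subunits of the cortex, and both genes carried LIN-35 at matching places. At gpr-2 (WBGene00001689, chromosome III, 9391330 to 9393164, minus strand) the summit was 329 bp upstream, with a signal of 357 pooled, 126 in replicate 1 and 226 in replicate 2 and ranks of 605, 479 and 710. At gpr-1 (WBGene00001688, chromosome III, 8628932 to 8630776, plus strand) it was 333 bp upstream, with a signal of 186 pooled, 43.7 in replicate 1 and 134 in replicate 2 and ranks of 1271, 1389 and 1278. The gpr-2 peak was the stronger one in all 3 lists. Both summits lay nearer to a divergent neighbour: that of gpr-2 was 237 bp from rgr-1, a Mediator subunit, and that of gpr-1 was 9 bp from polk-1, a translesion DNA polymerase.

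The copies are alike in DNA as well, which bears on how reads could be placed. The gene records were 97.1% identical over 1835 aligned bases, and the identity was 91.9% to 94.4% in each 100 bp window up to 400 bp upstream of gpr-1. It fell to 53.8% in the window from 400 to 500 bp. Aligned to each other, the summits were 4 bp apart (333 and 337 bp upstream of gpr-1) and lay inside the shared stretch. Of the stretches of 36 bases within 150 bp of each summit, 8 of 266 (3.01%) occurred more than once in the genome, against 815 of 1810 (45.0%) in the gpr-1 record. At the other 8 genes none of the 266 was repeated. The labels do not give the read length. The deposited manifest lists signal tracks of unique reads, not used here, and does not say whether the peaks rest on unique reads. The part of shared reads in the gpr-1 and gpr-2 signals was not tested.

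**Figure D3:**
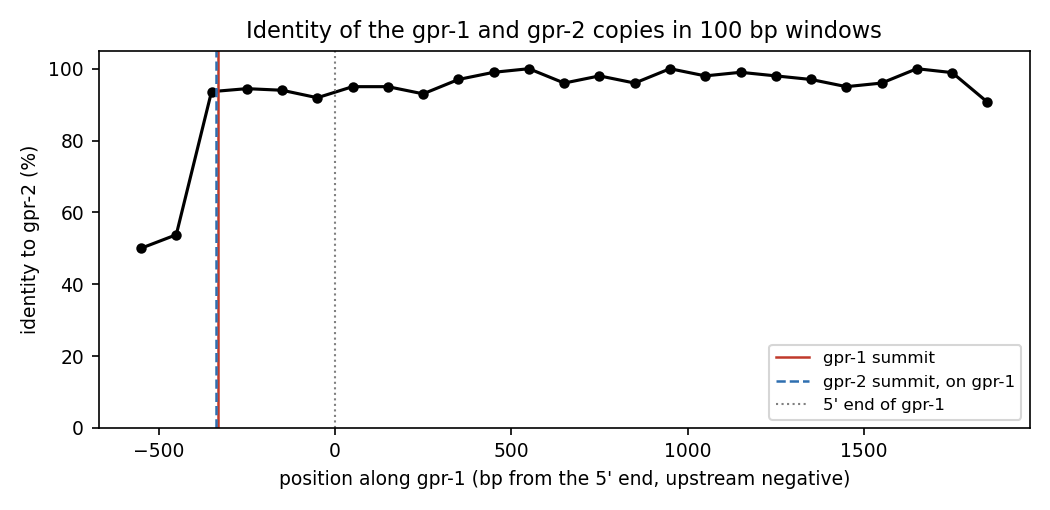
Identity of gpr-2 to gpr-1 in consecutive 100 bp windows of 1 alignment (y axis, %), by position along gpr-1 (x axis, bp from the 5′ end). The identity is 53.8% or less in the 2 windows furthest upstream and 90.7% or more in the others, and both summits (vertical lines) lie just inside the similar stretch.

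The 2 copies hold an E2F match each, at different bases of that stretch. The E2F motif was searched as TTCCCGC or TTCGCGC or TTGCCGC or TTGGCGC on both strands. The 4 lines below show the reference sequence of each copy at the place of the gpr-1 match and at the place of the gpr-2 match, because the copies differ there within the match. All are written 5′ to 3′ on the strand of the gene (RefSeq genome, WBcel235, the ce11 assembly), with the 7 bases of the match, or their counterpart in the other copy, in capitals.
gpr-1 at the gpr-1 match, chrIII:8628609-8628638, plus strand: tatcagaaagcgGCGCCAAattagaagttg
gpr-2 at the gpr-1 match, chrIII:9393450-9393479, minus strand: tatcagaaagcgGCGCTAAattagaagttg
gpr-1 at the gpr-2 match, chrIII:8628632-8628661, plus strand: gaagttgagtgcGCGAGAAaaaactacgcg
gpr-2 at the gpr-2 match, chrIII:9393427-9393456, minus strand: gaagttgagagcGCGCGAAaaaacaacgcg
Counted from 1 at the 5′ end of each line, with the gpr-1 base first, the change inside the first match was C17T and that inside the second A16C. The matches lay 25 bp from the gpr-1 summit and 52 bp from the gpr-2 summit, so only gpr-1 was counted in the window of 50 bp on each side.

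A match was counted where all its bases lay within 50 bp of the summit, and its distance is given to its middle. By this count an E2F match was present at the strongest summit of 5 of the 10 genes (lin-5, klp-19, cls-2, gpr-1 and klp-7). All 5 were among the 8 genes with an IDR peak. Of all 3838 IDR summits 13.0% had a match in the same window, of all 30000 pooled summits 5.20%, and of stretches of the same length that end at a protein-coding 5′ end 2.68%. The CHR motif, TTTGAA or TTCGAA, lay wholly in that window at lin-5, bmk-1 and klp-7, 3 of 10 genes and 3 of the 8 with an IDR peak. Of all IDR summits 24.6% had one, of all pooled summits 25.1%, and of the stretches that end at a 5′ end 33.4%. The difference of this small count from those shares was not tested. At klp-18 a CHR match TTTGAA with its middle 50 bp from the summit crossed the edge of the window and was not counted. With it the count would be 4 of 10. Together with an E2F match it stood at lin-5, directly beside it, and at klp-7. A match is a description of letters and does not show a bound factor.

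These stretches of 30 bases show the match in capitals (E2F for lin-5, klp-19, cls-2 and klp-7, CHR for bmk-1) on the strand of the gene, and for klp-18, the strongest peak of the set, with neither motif wholly inside the window, the bases at the summit.
lin-5, chrII:7860483-7860512, plus strand: tgtcatttgaaTTCCCGCtgtttttagaag
klp-19, chrIII:13307263-13307292, minus strand: aatacactcgcgGCGCGAAattttgatttc
cls-2, chrIII:9054040-9054069, plus strand: gttctagaaggTTCGCGCaacaaaccaatc
klp-7, chrIII:10808155-10808184, plus strand: acgcaattTTCGCGCCAAtttcccagcagc
bmk-1, chrV:14456769-14456798, minus strand: gaatcattgtatTTCAAAttgattttcctg
klp-18, chrIV:7039646-7039675, plus strand: ctctcgcacgagacttgtgagtgtaagtgc
In klp-7 the capitals cover 2 overlapping matches, TTCGCGC on the strand of the gene and TTGGCGC on the other strand, 15 and 12 bp upstream of the summit. In lin-5 the CHR match ends at the base before the E2F match. The matches of lin-5, klp-19 and cls-2 lay 37, 41 and 39 bp from their summits.

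**Figure D4:**
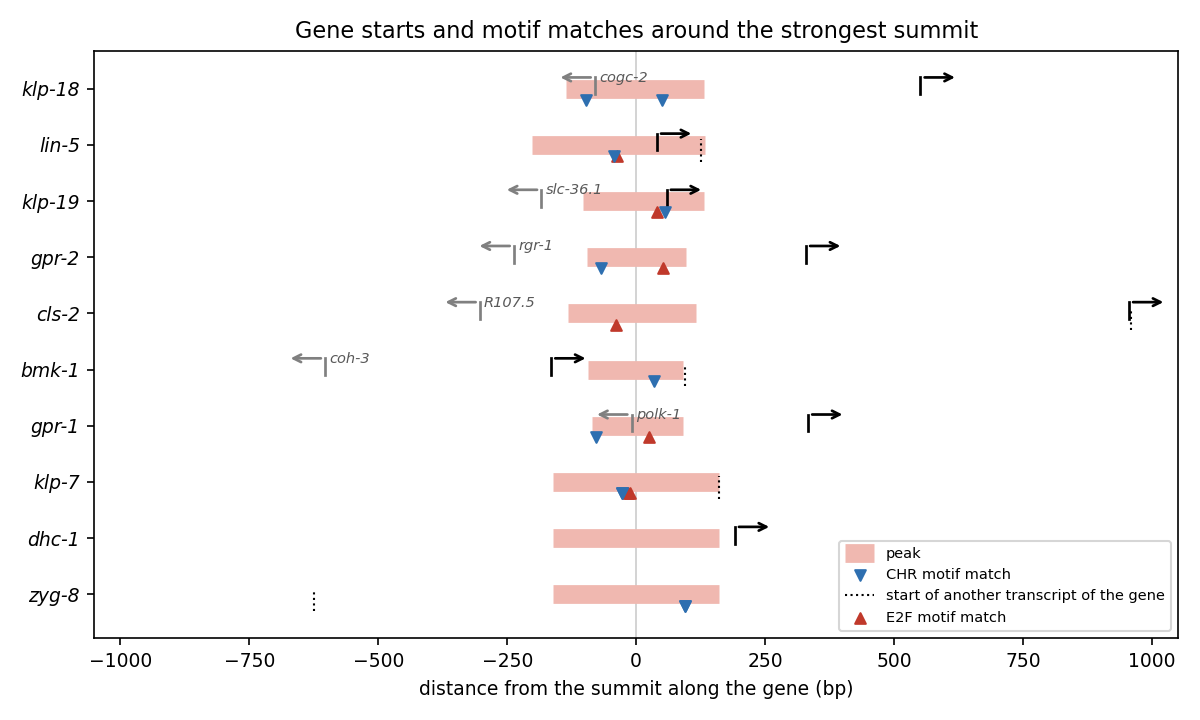
Gene starts and motif matches around the strongest pooled summit of each gene, in bp along the gene (x axis, summit at 0). Pink bars are peaks, black arrows are starts of the gene, grey arrows are starts of neighbours, dotted lines are starts of further transcripts, upward triangles are E2F matches and downward triangles CHR matches. E2F triangles lie within 52 bp of the summit at 6 genes, and a divergent neighbour starts on the upstream side of the summit at 6.

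The surroundings of the peaks were often divergent promoters. Of the 7 genes whose 5′ end had an IDR summit at most 1000 bp away, 6 had a protein-coding start of the opposite strand within 1000 bp of the same summit, where 50.2% of all 3436 such genes did. In 4 of the 7 (klp-18, cls-2, gpr-1 and gpr-2) the neighbour's start was the nearer one. Of all 3436 such genes, 28.9% had another gene's start, on either strand, nearer to the summit. Which gene of such a pair a peak acts on was not tested. Of the 8 IDR summits 6 lay between protein-coding genes and 2 in introns, those of bmk-1 and klp-7, each ahead of the start of a further transcript. The GC content within 50 bp of the summits ranged from 38.6% at klp-19 to 56.4% at klp-7, between the 10th percentile (37.6%) and the 90th percentile (56.4%) of all IDR summits.

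The microtubule stability genes differed from each other. CLS-2 is the CLASP protein that promotes microtubule growth at kinetochores and in the central spindle. Its gene (WBGene00000549, chromosome III, 9055048 to 9058895, plus strand) had an IDR peak at 9053961 to 9054208, with a signal of 312 pooled, 74.9 in replicate 1 and 249 in replicate 2 and ranks of 702, 807 and 633. The summit lay 955 bp upstream, just inside the limit of 1000 bp, and 303 bp upstream of the divergent gene R107.5. A second pooled peak stood 108 bp upstream of cls-2, with a signal of 41.1 and rank 4903, below the IDR list. It overlapped peaks in both replicates, at ranks 5219 and 4118. Replicate 1 alone also had a summit 453 bp upstream at rank 2882. A cls-2 peak close to the gene was thus present in all 3 lists, but much weaker than the distant one.

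At zyg-8, which encodes a doublecortin-domain kinase needed for microtubule growth during spindle positioning (WBGene00006993, chromosome III, 12061713 to 12072070, plus strand), there were 4 pooled peaks and no IDR peak. Their signals were 24.3, 16.5, 13.7 and 12.6. The strongest, in a coding exon 2108 bp into the gene, had a signal of 14.0 in replicate 2, no overlapping peak in replicate 1, and a −log10 q-value of 1.24 where the pooled list reaches 3.92. Peaks 268 bp upstream of the gene and 56 bp upstream of the internal transcript Y79H2A.11b overlapped peaks in both replicates, at replicate 1 ranks of 6527 and 9395 and replicate 2 ranks of 27021 and 19040. The nearest IDR summit lay 3053 bp upstream of the gene.

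At dhc-1, the heavy chain of cytoplasmic dynein (WBGene00000962, chromosome I, 4386785 to 4401907, plus strand), 9 pooled peaks met the rule and none passed the IDR threshold. The strongest, 191 bp upstream of the 5′ end, had a signal of 30.3 pooled and 17.9 in replicate 2, with no overlapping peak in replicate 1. Its signal was 0.540 times the lowest signal of the IDR list. Of the 9, those 738 bp upstream and 3176, 6487 and 12730 bp inside the gene overlapped peaks in both replicates. That at 6487 bp, in a coding exon, ranked 3788 in replicate 1 but 22279 in replicate 2. By replicate 1 alone dhc-1 would therefore have counted among the genes with 1 of the 3838 strongest peaks. The 9 peaks came to 0.558 per kb of the searched region, against 0.299 pooled peaks per kb of the nuclear genome, and 60.1% of all protein-coding genes had at least 1 pooled peak under the rule. The nearest IDR summit lay 4880 bp upstream of dhc-1.

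Across the replicates the upper and lower ends of the order were kept. The strongest pooled peak overlapped 1 of the 3838 strongest peaks of both replicates at the 8 genes with an IDR peak, against 75.7% of all IDR peaks, and its summit moved by at most 67 bp between lists. The IDR list is the strongest part of a list pooled from the same replicates, so this agreement is in part how its peaks were chosen. Of the 8 genes, 7 also had a peak among the stronger 1919 of the IDR list. The rank ranges of klp-18 (169 to 197) and lin-5 (235 to 275) did not overlap each other or those of the other genes. Those of klp-19 (544 to 565), gpr-2 (479 to 710) and cls-2 (633 to 807) were not separated, since gpr-2 overlapped both others. The ranges of bmk-1 (1005 to 1241), gpr-1 (1278 to 1389) and klp-7 (1521 to 2421) followed in that order without overlap, with 2 values each. Of the 26 weaker pooled peaks at 8 of the 10 genes, with signals of 9.87 to 41.1, 8 overlapped a peak in both replicates, 17 in 1 and 1 in neither. The replicate 1 list is the shorter one, with 23835 peaks against 30000 in replicate 2. How far its length accounts for peaks missing from replicate 1 was not tested.

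Other genes of the spindle machinery were counted by the same rules in 4 lists of 76 genes found in the annotation. These lists too were chosen with earlier results of these data known, so differences from all genes may be in part how they were chosen. The list of cytoplasmic dynein and dynactin genes, around dhc-1, also holds regulators such as lis-1 and nud-1. Its genes met the rule of 500 bp in 12 of 21 and the wider rule in 14 of 21. Of all protein-coding genes 13.6% and 19.0% did. The strongest were cap-2, a capping protein subunit (signal 396), arp-11, an actin-related dynactin subunit (signal 303), and dli-1, the dynein light intermediate chain (signal 285). Of the further kinesins 4 of 15 (26.7%) had one within 500 bp and 6 of 15 under the wider rule. Within 500 bp the strongest were klp-13 (signal 626), zen-4, the central spindle kinesin of cytokinesis (signal 120), and klp-15, a kinesin of acentrosomal spindles (signal 103). Under the wider rule klp-11 (signal 108) was stronger than klp-15. Microtubule-associated spindle proteins had 5 of 16 within 500 bp and 9 of 16 under the wider rule. Within 500 bp the strongest were cls-3, a further CLASP gene (signal 647), and hcp-1, the CENP-F-like protein that brings CLS-2 to kinetochores (signal 348). Next came aspm-1, which focuses spindle poles with LIN-5 (signal 228). Under the wider rule spd-1, with a summit 946 bp upstream, was stronger than cls-3 (signal 736).

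The cortical force and polarity genes had IDR summits within 500 bp in only 4 of 24 (16.7%, near the 13.6% of all genes) and under the wider rule in 12 of 24. The strongest of the 4 were par-5, a protein of the 14-3-3 family (signal 206), let-99, which limits cortical GPR (signal 91.4), and lgl-1, a polarity protein (signal 88.4). The peaks of let-99 and lgl-1 ranked 10242 and 18278 in replicate 1 and 2274 and 2882 in replicate 2. Low replicate ranks also occurred within 500 bp in the dynein list (dyci-1 and cap-1) and the microtubule-associated list (air-1). These peaks ranked 5136, 5421 and 6058 in replicate 1 and 4446, 1767 and 1469 in replicate 2. The polarity gene par-2, chosen for mention after its values were seen, had a summit 642 bp upstream with a signal of 1135 and rank 115, above all 10 genes described here. An E2F match lay within 50 bp of the summit in 3 of 5 bound genes of the microtubule-associated list. In the dynein list it was 2 of 12, nud-1 and spdl-1. None of the 4 kinesins and 4 cortical genes had a match, where 13.0% of all IDR summits did. The dynein count is near that share, and none of these small counts was tested. The summits of dli-1, cap-2, dnc-1, dnc-2, spdl-1, klp-15, par-5, let-99, aspm-1, air-1 and hcp-2 also had another gene's start within 500 bp.

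**Figure D5:**
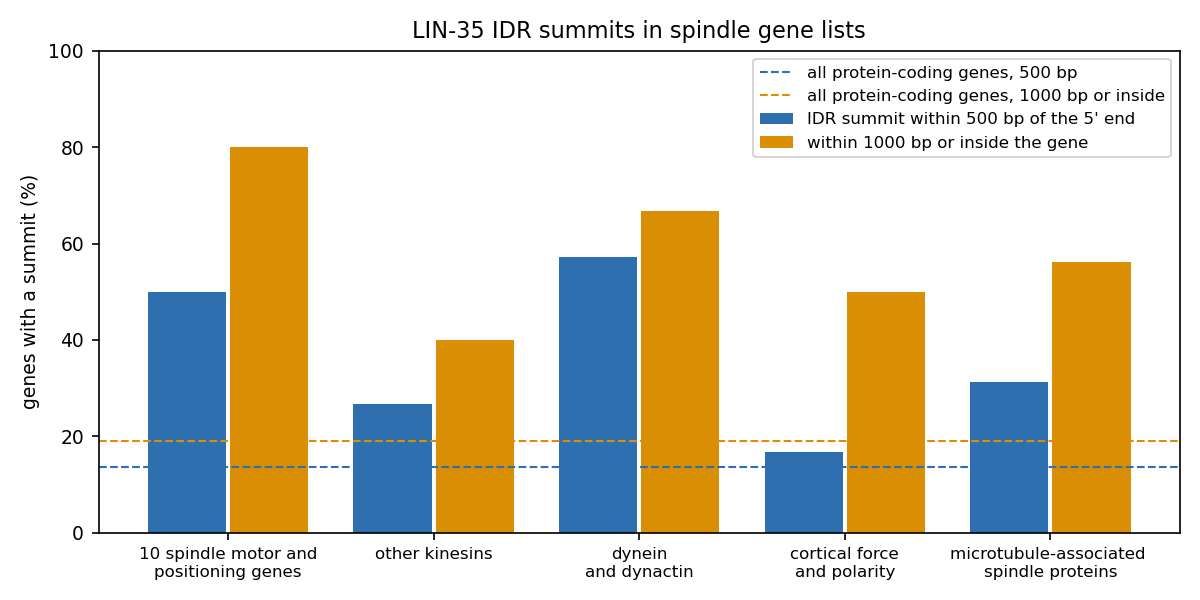
Share of genes whose 5′ end has an IDR summit closer than 500 bp (blue bars), or that have one within 1000 bp or inside the gene (orange bars), for the 10 genes and the 4 wider lists, in percent. Dashed lines are the shares of all protein-coding genes, 13.6% and 19.0%. The blue bar of the cortical force and polarity list (16.7%) is close to its line, and the others stand above theirs. The genes and lists were chosen with earlier results of these data known.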

How the data were processed

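LIN-35 ChIP-seq peaks of 2 replicates were read from 4 deposited ce11 lists (IDR, pooled, and 1 per replicate). By the manifest the submitters deposited, a replicate list derives from the alignment of that replicate and a file that the control-normalized tracks also use, the pooled list from both replicates and that file, and the IDR list was derived from them. For the aligner, the caller and the IDR cutoff, no value was given in the sources used. The signal value of each peak and the −log10 q-value are the authors' deposited values. Counts of reads are not in these lists, so depth is unknown and no interval was given. The 4 ce10 lists were left out, since no coordinate was converted.

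Genes came from Ensembl release 115 (WBcel235, the assembly of ce11). Coordinates count from 1. Overlap means at least 1 bp. The strongest peak of a gene is its strongest pooled peak under the rule. Copies were aligned globally with Biopython 1.88, and the assignment was tested on simulated summits. The members and lists were chosen with earlier results of these data known. Named were the 10 genes, neighbours with a start within 1000 bp of the strongest summit, and the 3 strongest genes of each wider list by the rule of 500 bp. Further genes of the wider lists were named after their values were seen. Of 83 listed genes 76 matched the annotation. No test was run, as there is 1 group. Alternatives were stronger or weaker thresholds, each replicate alone, other windows, transcript starts, nearest start only, other overlaps and other motifs.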

Additional observations from a re-analysis of the deposited data

How the results depend on the processing

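By the rule of 500 bp, 5 genes had an IDR summit. It was 3 within 250 bp (bmk-1, klp-19 and lin-5), 3 when a peak counted only for its nearest start, and 8 with the whole pooled list, which adds weak peaks of dhc-1, zyg-8 and cls-2. For these alternatives no share of all genes is given here. Under the wider rule the count was 8, and 7 to 10 under the alternatives, klp-7 dropping out of the stronger 1919 peaks. The count of 10 came from the whole pooled list, where 60.1% of all protein-coding genes met the rule. The E2F count of 5 became 3 with the longer motif that has 1 more T in front, which 5.86% of all IDR summits had. It became 0 with the motif reversed, which 8.36% of all IDR summits had, so 0 of 10 genes is near that share. Within 100 bp it was 6, for which no share of all IDR summits is given here. The 25 genes of the wider lists within 500 bp became 38 within 1000 bp, where 3436 of all 19973 protein-coding genes had a summit. Among the stronger 1919 peaks it was 16, for which no share of all genes is given here. Without replicate 1 or replicate 2 these counts ranged from 8 to 9 for the wider rule, from 5 to 6 within 500 bp, and from 21 to 24 for the wider lists. Shares of all genes without 1 replicate are not given here. The causes were not tested. Depth, which is unknown, and the background in the pooled list limit what the weak peaks of dhc-1 and zyg-8 can show.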
